A study of Mus musculus with 42 samples.

Results

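A group of 10 genes of glucocorticoid signalling was followed in the cerebellum of fasted mice: the 2 receptors Nr3c1 and Nr3c2, and 8 genes known to be induced through the glucocorticoid receptor, Fkbp5, Sgk1, Tsc22d3, Zbtb16, Mertk, Cdkn1a, Errfi1 and Sult1a1. They were taken by gene symbol from the deposited count tables, where all 10 were found among 35275 genes. All of them also passed the filter on low counts, which left 16577 genes in the table of the fasting regimens and 16444 in the refed one. RNA-seq of total RNA covered 30 libraries in 6 groups of 5, all from male C57BL/6 mice. From 3 months of age the AL mice ate ad libitum, the IF16 mice went without food for 16 h of each day, and the EOD mice went without food for 24 h on alternate days. These 3 groups were collected at 6 months of age, after 3 months. In another set, called refed AL, refed IF16 and refed EOD here (an R suffix in the labels), mice had the same 3 regimens, then 2 months with food always at hand, and were collected at 8 months of age. Flash-frozen cerebellum was used throughout. The hour of collection, and how long after the last meal it fell, are not given in the sources used here. In bulk tissue, fewer cells of a type and less RNA per cell cannot be told apart.

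Corticosterone, the main glucocorticoid of mice, crosses the cell membrane and binds the glucocorticoid receptor, the product of Nr3c1, which waits in the cytoplasm in a complex with heat shock proteins. The bound receptor enters the nucleus, where it can pair on a short palindromic DNA element and raise transcription of nearby genes. The mineralocorticoid receptor, the product of Nr3c2, binds the same hormone at lower concentrations and recognises the same element. Circulating corticosterone follows the day and the feeding schedule and is raised by fasting and by stress, so the induced genes are commonly read as a record of recent hormone exposure.

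The element can be looked for in the RefSeq promoter windows of GRCm38.p6, each running from 250 bases before to 50 bases after an annotated start. Of the 10 genes 8 have an entry, with 17 windows in all. Nr3c1 and Zbtb16 have none. The strict palindrome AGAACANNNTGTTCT, which reads the same on both strands, was found in 3 of 32851 windows, or 0.00913%. One of the 3 belongs to Sgk1, the serum and glucocorticoid regulated kinase. The 250 bases before that start, at chr10:21993640-21993889 on the plus strand, are shown because they hold the element of the receptor in a gene of this group, with the palindrome in capitals.
Sgk1: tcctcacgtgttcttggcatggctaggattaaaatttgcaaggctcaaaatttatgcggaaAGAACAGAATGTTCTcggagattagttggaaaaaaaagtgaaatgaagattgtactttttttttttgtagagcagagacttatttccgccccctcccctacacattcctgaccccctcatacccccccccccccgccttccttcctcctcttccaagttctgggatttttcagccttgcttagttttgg
The palindrome lies at chr10:21993701-21993715 and begins 189 bases before the start. The table holds 6 windows for Sgk1, and the counts, which are per gene, do not say which start was in use.

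The relaxed form GNACANNNTGTNC, also its own reverse complement, overlaps the strict one and was found in 156 windows, or 0.475%. Among the 10 genes it occurred only at the same Sgk1 site. Among 39 other genes of glucocorticoid signalling described further on, 3 had it: Map3k6, Mt1 and Fam107a. Their sites are shown for comparison with that of Sgk1, with the match in capitals and 10 bases on either side.
Sgk1: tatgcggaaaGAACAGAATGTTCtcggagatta
Map3k6: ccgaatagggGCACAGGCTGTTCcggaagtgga
Mt1: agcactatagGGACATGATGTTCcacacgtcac
Fam107a: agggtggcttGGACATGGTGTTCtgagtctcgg
The match in Map3k6 lies at chr4:133240637-133240649 on the plus strand, that in Mt1 at chr8:94178995-94179007 on the plus strand and that in Fam107a at chr14:8309885-8309897 on the minus strand. A match describes these letters only, and windows without one say nothing of the receptor.

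Levels were compared between genes as FPKM, the deposited values scaled by gene length and library total. Tsc22d3, which encodes a leucine zipper protein that blocks inflammatory signalling and is also called GILZ, was the highest, with a mean over the 6 groups of 37.7 FPKM. Sgk1 followed at 29.0, Cdkn1a at 19.99, Errfi1 at 15.1 and Nr3c1 at 14.6 FPKM. Lower levels were found for Nr3c2 at 4.94, Mertk at 4.87, Sult1a1 at 4.42, Fkbp5 at 2.82 and Zbtb16 at 1.96 FPKM. Of the 9 neighbouring pairs in this order, only Nr3c1 and Nr3c2 lay farther apart than the larger of their group SDs. This measure leaves out that both genes of a pair were measured in the same libraries. Within single libraries Tsc22d3 was above Sgk1, and Sult1a1 above Fkbp5, in every library. The remaining pairs, apart from Nr3c1 and Nr3c2, did not keep their order throughout.

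Markers of the labelled tissue were present. The summed level of 7 granule cell markers was 5098 to 6107 CPM (counts scaled to library size, with TMM factors within a table) over the 15 libraries of the regimens, and that of 7 Purkinje cell markers 4483 to 6282 CPM, against 6.40 to 10.4 CPM for 6 forebrain markers. Markers of the choroid plexus, which can come along in dissection, varied widely within every group: the 11 summed to between 45.2 and 4295 CPM over AL, 39.8 and 3115 over IF16, and 761 and 2914 over EOD. Total counts were 26799825 to 36167435 per library.

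Neither of the 2 receptors passed the test in IF16 or EOD. Positions here and below are those of the deposited tables, for which the submitters' processing notes name mm10. Nr3c1 (chr18:39410545-39491301, minus strand) was at 103, 85.1, 85.2, 63.7 and 70.0 CPM in the 5 AL libraries. In IF16 it was at 85.9, 79.2, 109.3, 86.5 and 88.7 CPM, and in EOD at 94.2, 106, 88.3, 98.5 and 73.7 CPM. The values overlapped throughout. The log2 fold change against AL was 0.14 ± 0.13 (SE) in IF16 (adjusted p = 0.679) and 0.18 ± 0.13 in EOD (adjusted p = 0.443), by edgeR's quasi-likelihood test with Benjamini-Hochberg adjustment over all genes tested, which is the test of every adjusted p given here unless DESeq2 is named.

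Nr3c2 (chr8:76899442-77245012, plus strand) was at 28.5, 24.6, 25.0, 19.6 and 21.4 CPM in AL, at 24.7 to 27.9 CPM in IF16 and at 24.8 to 28.6 CPM in EOD. AL held the 2 lowest libraries and also one near the top of EOD. Its log2 fold change was 0.15 ± 0.09 in IF16 (adjusted p = 0.57) and 0.16 ± 0.09 in EOD (adjusted p = 0.373). In the regimen libraries both receptors moved with a library property, the slope of a library's log2 deviations on gene length: Pearson's r was 0.812 for Nr3c1 (Spearman's rho 0.882, adjusted permutation p = 0.0054) and 0.895 for Nr3c2 (rho 0.904, adjusted permutation p = 4e-04), over 15 libraries. Without the 2 libraries of most extreme slope r was 0.737 and 0.836. These were the only 2 of 40 relations of the 10 genes with this slope or with the choroid plexus level, in either table, to pass. For the 8 induced genes none did, but in the regimen libraries r with the slope was positive for all 8. It ran from 0.256 for Cdkn1a to 0.637 for Errfi1 (adjusted permutation p = 0.57 and 0.13). With the slope as a covariate in the fit, the log2 fold change of Nr3c1 was 0.07 in IF16 (adjusted p = 0.694) and 0.01 in EOD (adjusted p = 0.987), and that of Nr3c2 was 0.09 in IF16 (adjusted p = 0.42) and 0.04 in EOD (adjusted p = 0.895).

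The induced genes stood higher on average in the fasted groups, but unevenly over the libraries, and none of them passed the test after adjustment. The plot of single libraries shows the pattern for all 10 genes.

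**Figure D1:**
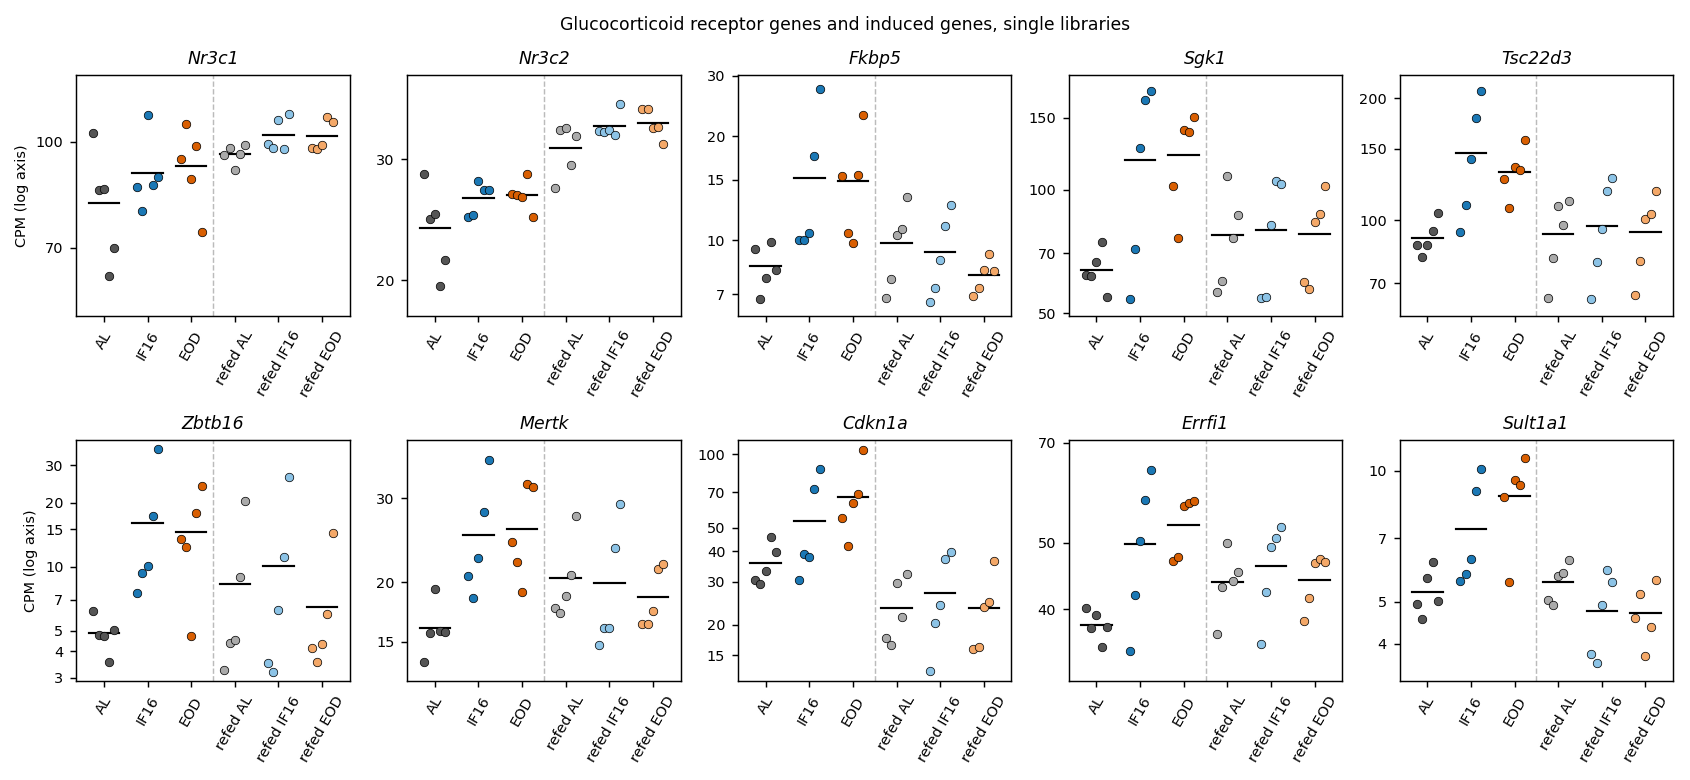
Level of each gene in each of the 30 libraries, as CPM on a log axis, by group; points are single libraries set left to right by replicate number, bars are arithmetic means, and the dashed line parts the 2 tables, which were scaled separately. Most induced genes are compact in AL and spread out in IF16 and EOD, with Zbtb16 reaching 36 CPM in one IF16 library against at most 6.19 CPM in AL.

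Zbtb16 (chr9:48654311-48835945, minus strand), a zinc finger transcription factor also known as PLZF, differed the most. It was at 6.19, 4.80, 4.71, 3.58 and 5.06 CPM in AL. In IF16 it was at 7.51, 9.35, 10.04, 17.4 and 36 CPM, so that every IF16 library lay above every AL library. In EOD it was at 13.6, 12.4, 4.71, 18.0 and 24.1 CPM, where 4 libraries lay above all of AL and the library with replicate number 3 sat among them. Against AL the log2 fold change was 1.72 ± 0.42 in IF16 (3.30-fold, adjusted p = 0.206) and 1.58 ± 0.42 in EOD (2.99-fold, adjusted p = 0.214). Without the highest IF16 library the former was 1.19.

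Fkbp5 (chr17:28399095-28517524, minus strand) encodes a co-chaperone that lowers the receptor's affinity for hormone and so closes a feedback loop. It was at 9.45, 6.75, 7.80, 9.92 and 8.19 CPM in AL. In IF16 it was at 10.07, 10.05, 10.5, 17.6 and 27.5 CPM: 3 libraries lay just above the highest AL library and the other two far above it. In EOD it was at 15.4, 10.5, 9.85, 15.5 and 23.0 CPM, with 1 library inside the AL range. This gave a log2 fold change of 0.85 ± 0.28 in IF16 (adjusted p = 0.363) and 0.82 ± 0.28 in EOD (adjusted p = 0.306). Without IF16 replicate 5 the estimate for IF16 was 0.52.

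Sgk1 (chr10:21882184-21999903, plus strand), whose kinase acts on ion channels and transporters, was at 61.8, 61.5, 66.5, 74.7 and 54.9 CPM in AL. In IF16 it was at 54.1, 71.5, 127, 166 and 174 CPM, which are 2 libraries within the AL range or just below it and 3 well above. In EOD it was at 102, 76.3, 140.1, 138 and 151 CPM, all above AL. On the log2 scale the difference from AL was 0.89 ± 0.27 in IF16 (adjusted p = 0.311) and 0.93 ± 0.27 in EOD (adjusted p = 0.247).

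Tsc22d3 (chrX:140539528-140600659, minus strand) was at 86.8, 81.1, 86.9, 94.2 and 104 CPM in AL. It was at 93.7, 109.2, 142, 179 and 208 CPM in IF16 and at 126, 107, 135, 133 and 157 CPM in EOD. One IF16 library lay within the AL range, and no EOD library did. The log2 fold change was 0.69 ± 0.17 in IF16 (adjusted p = 0.216) and 0.54 ± 0.17 in EOD (adjusted p = 0.272).

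Mertk (chr2:128698956-128802894, plus strand), a receptor tyrosine kinase through which astrocytes, microglia and other phagocytes take up dying cells and synapses, was at 13.6, 15.7, 19.3, 15.8 and 15.7 CPM in AL. It was at 20.6, 18.5, 22.4, 28.1 and 36.2 CPM in IF16 and at 24.3, 22, 19.1, 32.0 and 31.7 CPM in EOD. A single library of each fasted group fell within the AL range, below the AL library of 19.3 CPM. Against AL the log2 fold change was 0.65 ± 0.18 in IF16 (adjusted p = 0.284) and 0.69 ± 0.18 in EOD (adjusted p = 0.203).

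Cdkn1a (chr17:29090979-29100722, plus strand) encodes the cell cycle inhibitor p21. It was at 30.7, 29.4, 33.2, 45.8 and 39.8 CPM in AL. The IF16 libraries had 30.6, 39.0, 38.1, 72.3 and 87.1 CPM and the EOD libraries 54.8, 42.1, 63.3, 69.0 and 104 CPM. In IF16 3 libraries were inside the AL range and 2 far above the AL maximum, while 4 EOD libraries were above AL. This gave a log2 fold change of 0.58 ± 0.27 in IF16 (adjusted p = 0.506) and 0.90 ± 0.28 in EOD (adjusted p = 0.261). Without IF16 replicate 5 the former was 0.33.

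Errfi1 (chr4:150853919-150868892, plus strand), which encodes an inhibitor of the EGF receptor, was tightest in AL, at 40.2, 37.6, 39.2, 35.2 and 37.7 CPM. It was at 34.7, 42.0, 50.4, 57.7 and 64.0 CPM in IF16 and at 47.0, 47.7, 56.5, 57.1 and 57.6 CPM in EOD. The lowest IF16 library was below all of AL, whereas every EOD library was above AL. On the log2 scale the difference from AL was 0.39 ± 0.13 in IF16 (adjusted p = 0.363) and 0.49 ± 0.13 in EOD (adjusted p = 0.209).

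Sult1a1 (chr7:126672865-126676432, minus strand), a sulfotransferase of phenols, was at 4.94, 4.57, 5.65, 6.16 and 5.02 CPM in AL. It was at 5.59, 5.78, 6.26, 8.99 and 10.1 CPM in IF16 and at 8.70, 5.54, 9.52, 9.28 and 10.7 CPM in EOD. In IF16 2 libraries and in EOD 1 library lay in the AL range. The log2 fold change was 0.48 ± 0.19 in IF16 (adjusted p = 0.432) and 0.73 ± 0.19 in EOD (adjusted p = 0.203).

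Counted together, 0 of the 10 genes were called at an adjusted p under 0.05 in IF16 against AL, where 0.0483% of all genes tested were called, and 0 of 10 in EOD against AL, where 0.0664% were. At an unadjusted p under 0.05, 7 of 10 were higher in IF16 (4.35% of all genes tested were higher at that level) and 8 of 10 in EOD (7.02%). The 7 are the induced genes other than Cdkn1a and the 8 are all induced genes. The 10 genes were chosen with earlier results of these data known, which limits what these counts can show. DESeq2, run on the same genes, called 2 in IF16, Tsc22d3 (adjusted p = 0.0209) and Zbtb16 (0.0348), and 3 in EOD, Sult1a1 (0.0253), Mertk (0.0297) and Errfi1 (0.0487). DESeq2 called 0.579% and 0.772% of all genes tested in these comparisons, a larger share than edgeR. Leaving out any 1 of the 10 libraries compared gave no call in edgeR for either regimen. The median log2 fold change of the 8 induced genes was 0.67 in IF16 and 0.78 in EOD, beside -0.006 and -0.018 over all genes tested. Groups did not overlap for Fkbp5 and Zbtb16 in IF16 (0.857% of all genes were higher without overlap) and for Sgk1, Tsc22d3 and Errfi1 in EOD (1.36%). Both regimens were compared with the same 5 AL libraries, so their differences are not independent of each other.

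The regimens themselves were then compared. EOD against IF16 had 0 of 10 genes called by edgeR or by DESeq2 and 0 of 10 at an unadjusted p under 0.05 (0% and 3.62% of all genes tested). The widest difference among the induced genes was that of Cdkn1a, at 0.32 ± 0.27 on the log2 scale (adjusted p = 0.977), and the differences of Sgk1, Mertk and Fkbp5 were 0.04 ± 0.26, 0.04 ± 0.18 and -0.03 ± 0.28.

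After refeeding the log2 fold changes of the induced genes against refed AL lay between -0.36 and 0.27. Within a group the highest library was 4.02 to 8.32 times the lowest for Zbtb16 and 1.95 to 3.09 times for Cdkn1a, and under 2 times for the other 6 induced genes. Zbtb16 was at 3.26, 4.40, 4.50, 8.98 and 20.5 CPM in refed AL. It was at 3.52, 3.18, 6.27, 11.2 and 26.5 CPM in refed IF16 and at 4.14, 3.57, 4.34, 6.03 and 14.4 CPM in refed EOD. Each group thus held 1 library far above its others, the control group included, and the log2 fold change against refed AL was 0.27 ± 0.56 in refed IF16 (adjusted p = 0.905) and -0.36 ± 0.57 in refed EOD (adjusted p = 0.918).

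In refed AL Tsc22d3 was at 64.3, 80.6, 108, 97.5 and 111 CPM. It was at 63.9, 78.8, 95.4, 118 and 127 CPM in refed IF16 and at 65.5, 79.3, 101, 103 and 118 CPM in refed EOD. The 3 groups covered almost the same range, and the log2 fold changes were 0.06 ± 0.18 and 0.02 ± 0.18 (adjusted p = 0.933 and 0.993). Sgk1 covered 56.4 to 108 CPM in refed AL, 54.5 to 105 in refed IF16 and 57.2 to 102 in refed EOD, with log2 fold changes of 0.04 ± 0.21 and 0.01 ± 0.21.

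Fkbp5 was at 6.80, 7.76, 10.3, 10.8 and 13.4 CPM in refed AL. It was at 6.65, 7.31, 8.75, 11.02 and 12.7 CPM in refed IF16 and at 6.93, 7.30, 8.22, 9.12 and 8.17 CPM in refed EOD. Refed EOD lay within the range of the controls, without their upper end, and its log2 fold change was -0.30 ± 0.18 (adjusted p = 0.662), beside -0.09 ± 0.17 in refed IF16. Mertk spanned 17.3 to 27.5 CPM in refed AL, 14.8 to 29.2 in refed IF16 and 16.3 to 21.8 in refed EOD. Cdkn1a spanned 16.6 to 32.3, 12.9 to 39.97 and 15.9 to 36.6 CPM, and Errfi1 36.9 to 49.9, 35.6 to 52.7 and 38.4 to 47.3 CPM, in the same order of groups. Sult1a1, at 4.91 to 6.24 CPM in refed AL, was at 3.61 to 5.91 in refed IF16 and 3.76 to 5.62 in refed EOD, a log2 fold change of -0.23 ± 0.14 and -0.24 ± 0.14 (adjusted p = 0.615 and 0.66).

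The receptors were tighter in the refed libraries. So was the median gene, whose SD of log2 CPM within groups was 0.20 in the regimen libraries and 0.11 in the refed ones. Nr3c1 was at 90.9 to 99.0 CPM in refed AL, 97.6 to 109.5 in refed IF16 and 97.7 to 109 in refed EOD, and Nr3c2 at 27.3 to 33.3, 32.5 to 36.1 and 31.6 to 35.6 CPM. Nr3c1 gave the only unadjusted p under 0.05 among the 10 genes in refed IF16 against refed AL (log2 fold change 0.09 ± 0.04, adjusted p = 0.507), and Nr3c2 the only one in refed EOD against refed AL (0.12 ± 0.06, adjusted p = 0.565). No gene of the 10 was called in refed IF16 against refed AL, in refed EOD against refed AL or in refed EOD against refed IF16 by edgeR or by DESeq2, where edgeR called 0.17%, 0.0426% and 0.0182% of all genes tested. At an unadjusted p under 0.05 there were 1, 1 and 0 of 10, beside 9.58%, 8.5% and 9.75% of all genes. The median log2 fold change of the 8 induced genes was 0.05 in refed IF16 and -0.07 in refed EOD.

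**Figure D2:**
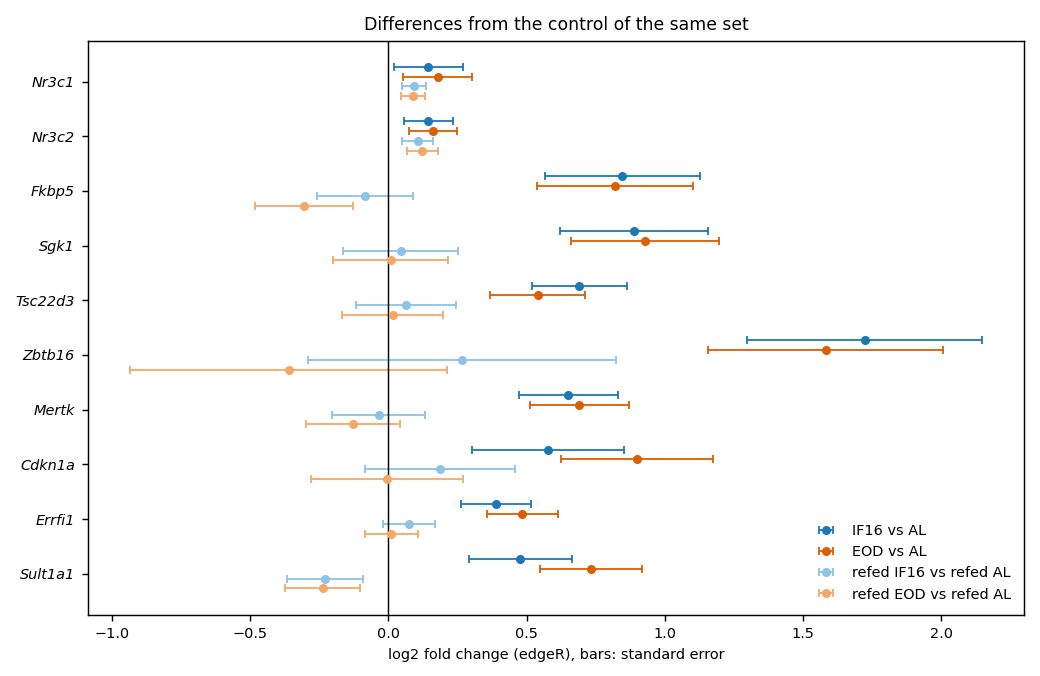
Log2 fold change (edgeR, bars are standard errors) of each gene in the 4 comparisons with the control group of the same table. The 8 induced genes lie between 0.39 and 1.72 at the end of the regimens and between -0.36 and 0.27 after refeeding, while Nr3c1 and Nr3c2 lie between 0.09 and 0.18 in all 4.

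Whether a difference from the controls itself differed before and after refeeding was tested as an interaction in one fit of all 30 libraries. It was positive for all 10 genes with both regimens, yet 0 of 10 passed the adjusted threshold with either, by edgeR or DESeq2 (0.0474% of all genes tested were called by edgeR for IF16 and 0.0119% for EOD). At an unadjusted p under 0.05 it was positive for 5 of 10 with IF16 (3.28% of all genes) and for 7 of 10 with EOD (4.86%). Sult1a1 gave the smallest p, with an interaction of 0.97 ± 0.24 on the log2 scale for EOD (adjusted p = 0.261), followed by Fkbp5 at 1.13 ± 0.36 (adjusted p = 0.349) and Mertk at 0.82 ± 0.26 (adjusted p = 0.359). For IF16 the count of 5 became 2 without IF16 replicate 5 and 3 without IF16 replicate 4, refed AL replicate 3, refed IF16 replicate 1 or refed IF16 replicate 2. For EOD the count of 7 became 5 with the slope on gene length as a covariate and 5 without refed AL replicate 5. The refed mice were also 2 months older, and age and refeeding cannot be told apart.

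FPKM are scaled only by length and total count, and so alike in both tables. Between the tables the set of mice, age and refeeding cannot be told apart. Library properties differed too: the slope on gene length ran from -0.158 to 0.139 in the regimen libraries and from -0.026 to 0.042 in the refed ones. Ordered by FPKM over the 6 groups, the induced genes were highest in IF16 or EOD without exception. AL was the lowest group for Sgk1, Tsc22d3, Zbtb16, Mertk and Errfi1. Refed EOD was lowest for Fkbp5 (2.06 ± 0.21 FPKM) and Cdkn1a (12.3 ± 4.34), and refed IF16 for Sult1a1 (3.44 ± 0.70). Of the 5 neighbouring pairs in each order, those whose means lay farther apart than the larger SD numbered 1 at most: AL below refed EOD for Mertk, AL below refed AL for Errfi1, refed IF16 below EOD for Tsc22d3, and none for the rest of the induced genes. The receptors ran differently, with AL lowest and refed EOD highest for both, and the pairs beyond the larger SD were refed AL below refed IF16 for Nr3c1 and IF16 below refed AL for Nr3c2. From AL to refed EOD, which belong to different tables, Nr3c1 went from 12.7 ± 2.63 to 15.9 ± 0.70 FPKM and Nr3c2 from 4.04 ± 0.67 to 5.74 ± 0.32 FPKM.

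The spread within groups was wider for most induced genes than for the receptors. The SD of log2 CPM within groups of the regimen libraries was 0.75 for Zbtb16, more than that of 98.4% of all genes tested, and 0.50 for Sgk1 (93.2%), 0.49 for Cdkn1a (92.8%) and 0.49 for Fkbp5 (92.4%). It was 0.31 for Tsc22d3 (77.9%), 0.31 for Mertk (78.1%) and 0.32 for Sult1a1 (79.7%). Errfi1 at 0.22 (59.3%) was close to Nr3c1 at 0.22 (57.5%). Nr3c2 had 0.14 (27.3%), where the median gene had 0.20. In the refed libraries the median gene had 0.11, and Zbtb16 had 1.05 (99.8%), Cdkn1a 0.54 (97.3%), Sgk1 0.41 (92%) and Tsc22d3 0.36 (89%). Fkbp5 had 0.33 (86.4%), Mertk 0.32 (85.2%), Sult1a1 0.24 (77.3%) and Errfi1 0.18 (68.7%). Nr3c1 had 0.07 (20.4%) and Nr3c2 0.09 (37.2%). Fkbp5 had 204 to 914 counts per library and Sgk1 1714 to 5784, so for these 2 genes counting error is small beside the spread. Zbtb16 had 106 to 1198 counts and Sult1a1 117 to 383. Counting error is a larger part of the spread for Sult1a1, whose spread is also narrower.

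The same libraries tended to be high for all induced genes. Across the 15 libraries of the regimens, log2 CPM of Fkbp5 correlated with Zbtb16 at r = 0.915 (rho 0.907), with Mertk at 0.89, with Cdkn1a at 0.886, with Tsc22d3 at 0.877, with Sult1a1 at 0.856, with Sgk1 at 0.807 and with Errfi1 at 0.792 (rho 0.768). The adjusted permutation p-values of r, over 18 relations in the 2 tables, were at most 0.00063 for these 7. Nr3c1 and Nr3c2 had r = 0.0487 and 0.342 (rho 0.311 and 0.475), with adjusted permutation p = 0.864 and 0.253. Without IF16 replicate 5 and EOD replicate 5, the 2 libraries farthest from the median of Fkbp5, the 7 values of r lay between 0.691 and 0.835.

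In the 15 refed libraries r with Fkbp5 ran from 0.676 for Sult1a1 (rho 0.639, adjusted permutation p = 0.00825) to 0.874 for Mertk (rho 0.771, adjusted permutation p = 0.00024). Tsc22d3 had 0.836, Zbtb16 0.834, Cdkn1a 0.798, Sgk1 0.774 and Errfi1 0.749. Without refed AL replicate 5 and refed IF16 replicate 5 the 7 values lay between 0.598 and 0.831, and those of Nr3c1 and Nr3c2, at 0.165 and 0.0936 with all libraries, turned to -0.0582 and -0.109. The relations also held inside the groups: with each library taken as its deviation from its group mean, the same count of 7 of 9 relations passed in each table. Libraries were also taken as deviations from the mean of their replicate number, with exact permutation within numbers, a setting chosen after seeing the data. In the regimen libraries r of the 7 induced genes was then 0.88 to 0.935, with adjusted permutation p of at most 0.0139, and Nr3c2 passed as well (r = 0.699, adjusted permutation p = 0.0484). In the refed libraries only Sult1a1 passed (r = 0.462, adjusted permutation p = 0.0484). There Mertk had r = 0.778 and Zbtb16 0.643 (adjusted permutation p = 0.0745 and 0.112), and the other four induced genes 0.114 to 0.257 (at least 0.68). The joint variation of the refed libraries thus lay largely between replicate numbers for Sgk1, Tsc22d3, Cdkn1a and Errfi1. Libraries of 1 table share their scaling, and libraries of 1 group share their feeding history.

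**Figure D3:**
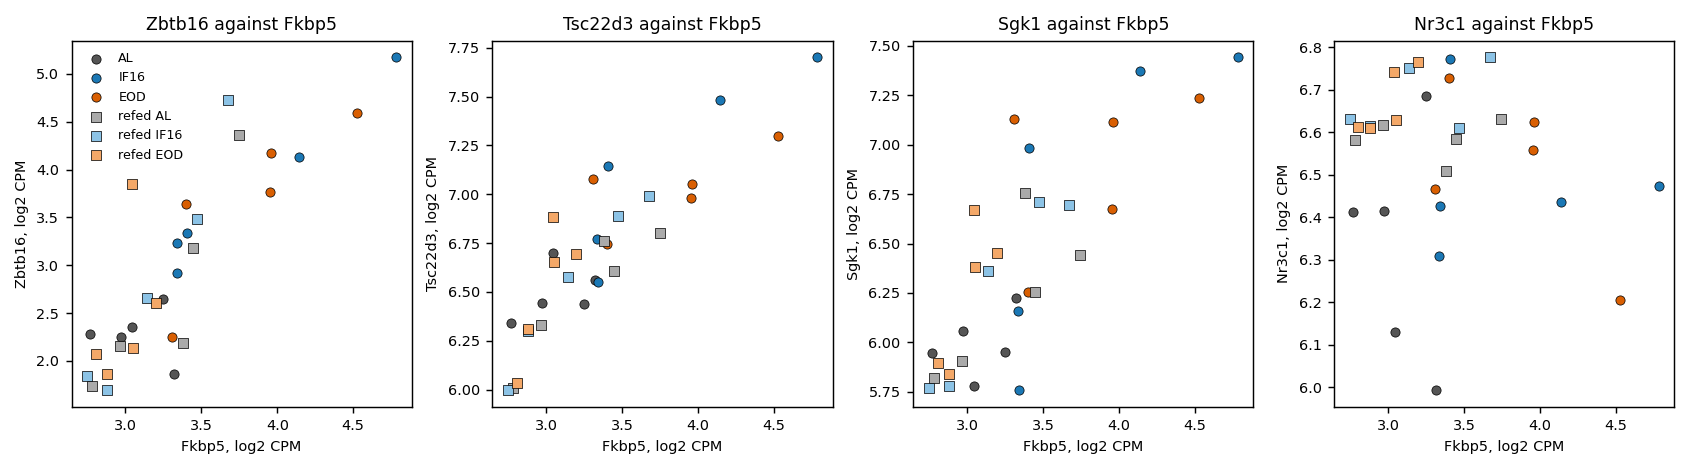
Log2 CPM of Zbtb16, Tsc22d3, Sgk1 and Nr3c1 against that of Fkbp5; each point is 1 of the 30 libraries, circles at the end of the regimens and squares after refeeding. The first 3 panels follow a rising band that the fasted libraries extend (r from 0.774 to 0.915 within a table), and Nr3c1 follows none (r = 0.0487 and 0.165).

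Genes of like pattern were ranked by the lower of their 2 values of r with Fkbp5, one per table, over 13056 genes with a mean of at least 1 CPM. The 5 highest outside the group were Map3k6 (0.914), a stress-activated kinase, Slc2a1 (0.886), the glucose transporter GLUT1, Gpt2 (0.884), the mitochondrial alanine aminotransferase, Hif3a (0.882), a hypoxia inducible factor subunit, and Klf15 (0.88), a transcription factor of fasting metabolism. Map3k6, Hif3a and Klf15 are also on the list of other induced genes. Mertk ranked 6, Tsc22d3 11, Zbtb16 12, Cdkn1a 24, Sgk1 29, Errfi1 43 and Sult1a1 77, whereas Nr3c2 ranked 3048 and Nr3c1 3504.

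Other genes of the pathway were read from a list of 28 genes known to be induced by glucocorticoids, all of them tested. In IF16 against AL 1 of 28 rose, where 0.0483% of all genes tested were called, and 17 were higher at an unadjusted p under 0.05, beside 4.35% of all genes. In EOD against AL 3 of 28 rose, beside 0.0664%, and 19 were higher at that level, beside 7.02%. None fell in either. DESeq2 called 4 of 28 in IF16 (Per1, Plin4, Mt1 and Mt2) and 6 in EOD (these 4, Angptl4 and Mfsd2a). The median log2 fold change of the list was 0.50 in IF16 and 0.52 in EOD. The genes that rose by edgeR were Per1, a component of the circadian clock, Angptl4, a secreted inhibitor of lipoprotein lipase, and Plin4, a coat protein of lipid droplets.

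Per1 was at 110.3 ± 16.0 CPM in AL (SD, n = 5), and in IF16 it rose to 182 ± 25.8, a log2 fold change of 0.73 ± 0.12 (adjusted p = 0.0451 by edgeR). In EOD it rose to 182 ± 27.9 CPM, a log2 fold change of 0.72 ± 0.12 (adjusted p = 0.0436 by edgeR). No library of either fasted group reached down to the AL maximum of 132 CPM. Angptl4 was at 2.84 ± 0.73 CPM in AL and 4.10 ± 1.17 in IF16, and rose to 7.30 ± 1.46 in EOD (log2 fold change 1.37 ± 0.21, adjusted p = 0.0233 by edgeR). Plin4 was at 2.14 ± 0.34 CPM in AL, 7.17 ± 4.97 in IF16 (adjusted p = 0.109) and rose to 8.69 ± 2.56 in EOD (log2 fold change 2.02 ± 0.36, adjusted p = 0.0485 by edgeR). These calls are near the threshold. Per1 kept its call in IF16 only without AL replicate 2 or IF16 replicate 1 among the 10 fits that left out 1 library, and in EOD only without EOD replicate 5. Angptl4 kept it without AL replicate 4 or 5 or EOD replicate 1 or 2, and Plin4 in none, with adjusted p from 0.0599 to 0.208. With the replicate number as a block only Angptl4 kept its call, and Mt2 was called in IF16, beside 0.0302% of all genes tested in IF16 and 0.0241% in EOD.

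In the refed groups 0 of the 28 genes were called against refed AL by edgeR or DESeq2 (0.626% of all genes tested were called by DESeq2 in refed IF16 and 0.48% in refed EOD), with a median log2 fold change of 0.03 in refed IF16 and -0.06 in refed EOD. In refed IF16 7 of 28, of which 3 were higher and 4 lower, had an unadjusted p under 0.05, beside 9.58% of all genes, and the smallest p-values were those of Lcn2 (log2 fold change -1.69 ± 0.54, adjusted p = 0.324), Irs2 (0.30 ± 0.10, 0.336), Sesn1 (0.14 ± 0.05, 0.349) and Gadd45b (-0.22 ± 0.08, 0.351). In refed EOD 2 were higher and none lower, a share below the 8.5% of all genes. They were Sesn1 (0.17 ± 0.05, adjusted p = 0.3) and Pdk4 (0.36 ± 0.14, 0.458), followed by Fam107a (-0.14 ± 0.07, 0.611) and Mt2 (-0.34 ± 0.19, 0.66). The interaction was positive for 9 of 28 at an unadjusted p under 0.05 with IF16 (3.28% of all genes) and for 12 of 28 with EOD (4.86%), with 0 called by edgeR. The smallest p-values were those of Mt2 with IF16 (1.49 ± 0.32, adjusted p = 0.082) and of Angptl4 with EOD (1.56 ± 0.30, adjusted p = 0.0754). DESeq2 called both (adjusted p = 0.0199 and 0.000955), together with Mt1 for IF16 (0.0114) and Plin4 for EOD (0.0333), where it called 0.16% and 0.083% of all genes tested. With the replicate number as a block in edgeR these 4 also passed, with adjusted p from 0.000391 to 0.0187, as did Hif3a, Map3k6 and Mt2 for EOD (0.0652% of all genes tested passed for IF16 and 0.0593% for EOD). The call of these interactions therefore depends on the model.

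**Figure D4:**
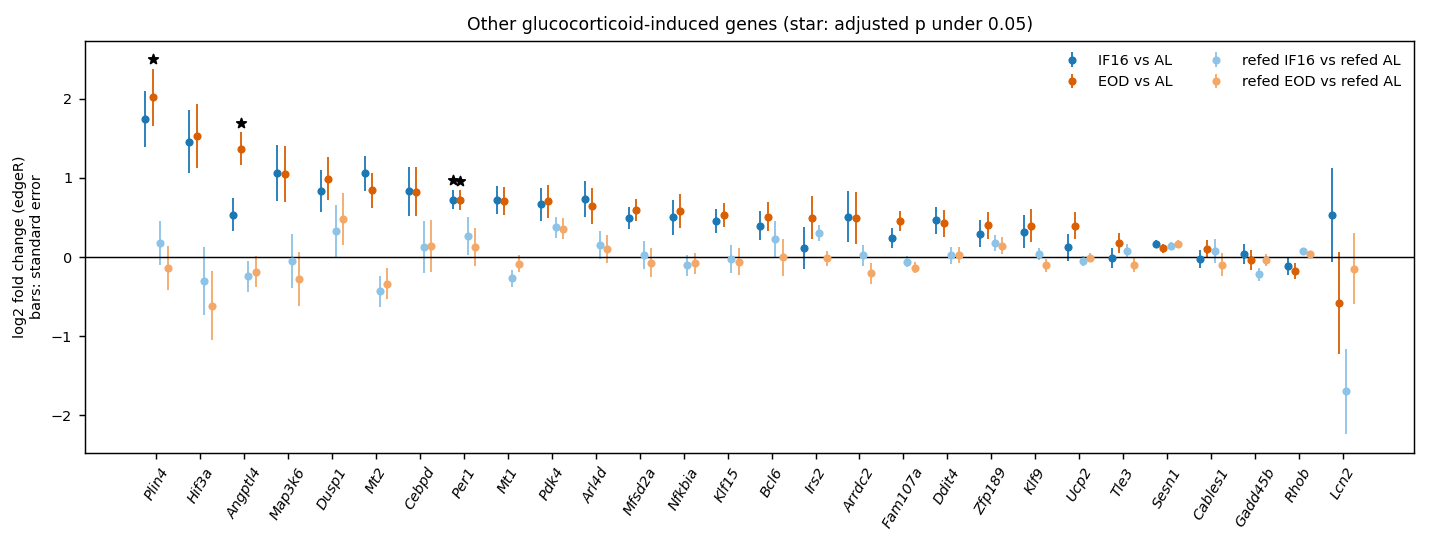
Log2 fold change (edgeR, bars are standard errors) of the 28 other glucocorticoid-induced genes against the control group of the same table, in order of their value in EOD. Stars mark the 4 calls, Per1 in both regimens and Angptl4 and Plin4 in EOD; after refeeding no gene has one.

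The proteins around the receptor formed a second list: heat shock chaperones and co-chaperones, coactivators and corepressors, steroid-converting enzymes and efflux pumps. Of its 21 genes 20 were tested, and 0 were called in any of the 6 pairwise comparisons or the 2 interactions by edgeR. The median log2 fold change was 0.02 in both IF16 and EOD. At an unadjusted p under 0.05, 1 of 20 was higher in IF16, near the 4.35% of all genes, and 3 of 20 in EOD, beside 7.02%, and none was lower. The coactivator Crebbp was at 83.1 ± 4.16 CPM in AL, beside 92.7 ± 4.51 with IF16 and 97.0 ± 11.1 with EOD (log2 fold change 0.16 ± 0.07 and 0.22 ± 0.07, adjusted p = 0.502 and 0.293). The chaperone Hsp90ab1 in IF16 was at -0.14 ± 0.09 (adjusted p = 0.606) and the coactivator Ncoa3 in EOD at 0.32 ± 0.12 (adjusted p = 0.317).

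After refeeding, 2 of 20 were higher in refed IF16 at an unadjusted p under 0.05 and 2 of 20 in refed EOD. This is near the 9.58% and 8.5% of all genes at that level. The smallest p-values on that list belonged to the coactivator Ncoa2 in refed IF16 and to Hsd11b1, the enzyme that regenerates active corticosterone inside cells, in both. Ncoa2 was at 103 ± 4.74 CPM in refed AL and 116 ± 5.52 in refed IF16 (log2 fold change 0.16 ± 0.04, adjusted p = 0.154, and 0.035 by DESeq2). Hsd11b1 was at 57.4 ± 3.55 CPM in refed AL, 64.4 ± 2.82 in refed IF16 and 65.7 ± 3.12 in refed EOD (0.17 ± 0.05 and 0.20 ± 0.05, adjusted p = 0.236 and 0.171). For Hsd11b1 DESeq2 gave an adjusted p of 0.0782 in refed IF16 and 0.0214 in refed EOD, and edgeR with the replicate number as a block gave 0.0299 and 0.0183 (0.578% and 0.274% of all genes tested were called with the block), so whether it is called depends on the model.

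Several of the induced genes are expressed in blood vessels, astrocytes or microglia, so the markers of these cells were set beside them. The 8 endothelial markers summed to 450.2 to 511 CPM over AL, 421 to 561 over IF16 and 464 to 580 over EOD. Slc2a1, named above for its likeness to Fkbp5, is 1 of these 8, with a mean of 170 CPM in the regimen libraries. The log2 fold change against AL was positive for 1 of the 8 in IF16 and for 4 in EOD, with medians of -0.13 and 0.002. The 8 astrocyte and Bergmann glia markers summed to 2903 to 3244, 3140 to 3441 and 3180 to 3828 CPM, and 8 microglial markers to 133 to 178, 122 to 153 and 123 to 138 CPM. Of the astrocyte and Bergmann glia markers 8 were positive in IF16 and 6 in EOD, with medians of 0.08 and 0.06. Of the microglial markers 2 were positive in IF16 and 2 in EOD, with a median of -0.18 in each. No marker of these 3 lists was called in IF16 or EOD against AL. In the refed groups the astrocyte markers Gja1 (log2 fold change 0.31 ± 0.04, adjusted p = 0.0116) and Aqp4 (0.23 ± 0.04, adjusted p = 0.0374) rose in refed IF16, and Gja1 rose in refed EOD (0.27 ± 0.04, adjusted p = 0.0427). Their part in the values of the 10 genes was not tested.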

How the data were processed

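The 10 genes and all gene lists were chosen with earlier results of these data known. The authors' count tables hold whole numbers of reads for each gene, 15 libraries for the regimens and 15 for refeeding, as deposited, beside deposited FPKM values that equal count over gene length and library total (largest relative difference 5e-12 at 10 counts or more). The submitters' processing notes name STAR 2.5, HTSeq 0.6.1, DESeq2 and the build mm10 with no role. Strand handling is not given in the sources used here, so genes that overlap may share reads. Nothing in the labels says what the replicate numbers stand for, and p-values measure the spread between these libraries.

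Counts were tested with edgeR 4.0.16 in R 4.3.3 (quasi-likelihood, TMM factors, filterByExpr), one fit per table and one over all 30 libraries for the interactions, with Benjamini-Hochberg adjustment over all genes tested and a threshold of 0.05. Standard errors come from the F statistic. CPM are TMM-scaled within a table, and log2 CPM used a prior count of 2. Correlations used 100000 permutations, two-sided, whose smallest p is 1e-05, and were adjusted within a family; those within replicate numbers used all permutations. The tests were tried on simulated data. Alternatives were DESeq2 1.42.0, RLE factors, no filter, a length gradient or choroid plexus covariate, a replicate block, only the 2 groups compared, and leaving out libraries. Named genes are the 10, every called gene of a pathway list or else up to 4 with the smallest p per comparison, of which some are given by count only, and the 5 most like Fkbp5. The 12 chromatin immunoprecipitation samples were not analysed here. Depth was 26799825 to 36167435 counts per library.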

Additional observations from a re-analysis of the deposited data

Results flagged for a closer look

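Each gene's CPM in each group, 60 groups of 5 libraries in all, was checked for a library whose gap to its nearest neighbour takes up most of the group's range (over 0.71 of it). Chance flags about 1 in 20 groups, and 2 were found. Nr3c2 was at 36.1 CPM in refed IF16 replicate 5, where the other four libraries lay between 32.5 and 33.1 CPM, a gap of 0.852 of the range. Zbtb16 was at 14.4 CPM in refed EOD replicate 5, where the other four lay between 3.57 and 6.03 CPM, a gap of 0.772 of the range. The interaction tests between the end of the regimens and refeeding gave no adjusted p under 0.05 for any of the 10 genes with either regimen.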

How the results depend on the processing

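The count of called genes among the 10 was 0 in all 8 comparisons under every alternative of edgeR, and 2 (IF16 against AL) and 3 (EOD against AL) with DESeq2. Of the 4 calls of other induced genes, all held with DESeq2 and without the filter. Per1 lost its call in IF16 with the choroid plexus covariate (adjusted p = 0.0776) and with only the 2 groups compared (0.119). In EOD it lost it with RLE factors (0.0505), with only the 2 groups (0.0514) and without the 4 libraries of extreme length gradient (0.236, a setting chosen after seeing the data). Plin4 lost its call with RLE factors (0.0525), with the length gradient (0.131) and without those 4 libraries (0.386). Counts at an unadjusted p under 0.05 moved where they were small. In refed IF16 against refed AL the count was 0 with the length gradient or the choroid plexus level as a covariate, 0 without refed AL replicate 1 or 4 or refed IF16 replicate 3 or 5, and 2 without refed AL replicate 2 or refed IF16 replicate 4. In refed EOD against refed AL it was 2 without the filter or with the choroid plexus covariate, 0 without refed AL replicate 4, and 2 without refed AL replicate 5 or refed EOD replicate 3 or 5. In EOD against IF16 it was 0 to 2 when leaving out 1 library (2 without IF16 replicate 5), and for the IF16 interaction 2 to 7. The cause was not tested. In IF16 against AL it was 6 to 8, in EOD against AL 8 to 10 and for the EOD interaction 5 to 8. Of the relations with Fkbp5 14 passed with RLE factors, a prior count of 0.5, deviations from group means and residuals on the length gradient and choroid plexus level, and 9 as deviations from the replicate number means.

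At the end of the regimens libraries with the same replicate number did not deviate together over all genes, whereas after refeeding they did so in part, without every pair correlating. The median correlation of same-numbered pairs was -0.044 for the regimens (3 of 15 pairs over 0.1) and 0.104 after refeeding (8 of 15), and 0 and 7 of 15 libraries correlated best with one of their own number. With the replicate block the counts at an unadjusted p under 0.05 were 8 in IF16 and 8 in EOD against AL, all higher. There was 1 in EOD against IF16 and 1 in refed IF16 against refed AL, both higher. Refed EOD had 3 against refed AL, of which 2 were higher, and 2 against refed IF16, of which 0 were higher. The interactions had 7 with IF16 and 8 with EOD, all positive. The share of all genes at that level was not computed with the block. The replicate block left 0 of the 10 genes called in every comparison. It ended the calls of Per1 in IF16 and EOD (adjusted p = 0.162 and 0.175) and of Plin4 in EOD (0.0552), kept that of Angptl4 (0.0024), and added Mt2 in IF16 (0.0356), Mt1 and Mt2 as lower in refed IF16 (0.0426 and 0.00803) and Mt2 as lower in refed EOD (0.034). Over all genes it moved the calls from 28 to 95 in refed IF16 against refed AL, from 7 to 45 in refed EOD against refed AL and from 3 to 40 in refed EOD against refed IF16.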

Other observations

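In the refed libraries the replicate number went with the level of the induced genes, whatever it stands for. It took 95.1% of the sum of squares of log2 CPM for Tsc22d3, the third highest share of 16444 genes, beside 0.405% for the group. The share was 91.8% for Zbtb16 (rank 23), 87.1% for Sgk1 (rank 109), 85.5% for Mertk (rank 156), 85.0% for Errfi1 (rank 171), 83.0% for Cdkn1a (rank 248) and 72.6% for Fkbp5 (rank 1035), where the median gene had 34.4%. For Sult1a1 it was 35.9%, for Nr3c1 27.1% and for Nr3c2 15.5%. The library with number 5 was the highest of all 3 refed groups for Tsc22d3, Zbtb16, Mertk and Cdkn1a. At the end of the regimens the shares of the number for the 8 induced genes ran from 22.4% for Errfi1 (rank 7507) to 48.4% for Cdkn1a (rank 1180 of 16577 genes). Nr3c1 had 28.9% and Nr3c2 12.3%, beside 20.5% for the median gene. There number 5 was highest in all 3 groups for Tsc22d3 alone. In IF16 and EOD, though not in AL, it was highest for Fkbp5, Sgk1, Zbtb16, Cdkn1a, Errfi1 and Sult1a1. For Mertk it was highest in IF16 only. In IF16 the CPM of Sgk1, Tsc22d3, Zbtb16, Errfi1 and Sult1a1 rose at each step from number 1 to number 5. Those of Fkbp5, Mertk and Cdkn1a did not rise at every step. How many of all genes rose in this way was not counted. The shares and these orders were read after the values had been seen.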
